A study of Mus musculus with 25 samples.

Results

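The 10 genes described here encode granule proteins and alarmins of neutrophils: S100a8, S100a9, Camp, Ngp, Ltf, Lcn2, Mmp8, Mmp9, Retnlg and Slpi. They were picked by symbol, and each of the 10 had exactly 1 row among the 38087 genes of each of 2 expression tables. The tables come from an RNA sequencing study of myeloid cells in regenerating skeletal muscle and of cultured macrophages. All muscle cells came from male C57BL/6J mice aged 2 to 4 months, whose tibialis anterior had received 50 µl of 12 µM cardiotoxin, a cobra venom peptide that destroys myofibres. After magnetic enrichment of CD45+ leukocytes the cells were sorted by flow cytometry into 5 groups. These were Ly6Ghigh Ly6Cint F4/80- neutrophils at day 1 (3 samples), Ly6Clow F4/80high macrophages at day 4 (2 samples) and day 2 (3 samples), and Ly6Chigh F4/80low macrophages at day 4 (2 samples) and day 2 (3 samples). No uninjured muscle is among these groups, and neutrophils were sampled on another day than the macrophages, so cell type and day cannot be told apart in any comparison with neutrophils. The second table holds bone marrow-derived macrophages (BMDM) of male C57BL/6J mice, whose age the labels give both as 2 to 4 months and, in the culture protocol, as 8 to 10 weeks, grown in 10 ng/ml macrophage colony-stimulating factor (M-CSF) and replated without it. In 3 libraries the cells had been exposed for 4 h to 10 nM RvD2 (resolvin D2), a pro-resolving product of docosahexaenoic acid, and 3 libraries were of untreated cells. Day 1 Ly6Chigh macrophages (3 samples) and blood monocytes (3 samples) were not analysed here.

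Neutrophils build their granules in waves while they mature in the bone marrow. Primary granule proteins such as myeloperoxidase are transcribed first, secondary granule proteins such as lactoferrin next, and tertiary granule proteins such as gelatinase last. Transcription of most granule genes ends before the cell enters the blood, while the proteins stay stored until the cell reaches a wound. S100A8 and S100A9 are cytosolic rather than granule proteins. They form the calprotectin heterodimer, bind calcium, zinc and manganese, and act as alarmins on Toll-like receptor 4 when released.

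In the files each muscle group has a single value per gene, the mean of log2 normalised counts that the authors took over the samples of that group. Muscle levels below are therefore geometric means with no error, and no difference between muscle groups could be set against the spread between replicates. A muscle gene is called different where the ratio of 2 groups, with 10 added to each normalised count, is at least 2-fold and the higher group has a normalised count of 50 or more. Normalised counts summed to 26.0 M (mega) in neutrophils and to between 11.9 and 12.8 M in the macrophage groups, and the read depth behind the muscle means is unknown. BMDM libraries had an estimated depth of 9.13, 9.78 and 11.9 M gene reads with RvD2 and of 10.1, 14.3 and 9.05 M untreated.

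The sort was checked on genes outside the 10. Ly6g, the antigen used to gate neutrophils, had a normalised count of 147.3 in neutrophils and was listed at 0 in the 4 macrophage groups. Cxcr2, a chemokine receptor of neutrophils, had 16068 in neutrophils against 4.24 to 9.72 in the macrophage groups, and Csf3r, the receptor of granulocyte colony-stimulating factor, had 79818 against 1317 to 2704. Of 18 neutrophil markers 17 reached the limit, and 16 were called higher in neutrophils than in every macrophage group (background 22.7%). The exception was Cd177, with 2018 in Ly6Chigh cells at day 2. Of 8 markers of eosinophils, basophils and mast cells 1 reached the limit, Siglec5, which was called higher in neutrophils, at 5466 against 9.01 to 30.1. Of 10 macrophage markers, 8 were called lower in neutrophils than in each macrophage group, and 10 once the groups were scaled to equal summed counts. The complement gene C1qa was at 113.5 in neutrophils against 4476 to 37439. The primary granule genes Mpo (myeloperoxidase) and Elane (neutrophil elastase) were close to 0 in neutrophils, with 3.83 and 1.31. In bulk samples fewer cells of a type and less RNA per cell cannot be told apart.

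S100a8 and S100a9 were among the most abundant transcripts of day 1 neutrophils and were at low levels in the macrophages. S100a8 (chromosome 3, 90668978 to 90670035, plus strand) had a normalised count of 101337 in neutrophils, 21.1 in Ly6Clow cells at day 4, 135.4 in Ly6Clow cells at day 2, 24.5 in Ly6Chigh cells at day 4 and 89.0 in Ly6Chigh cells at day 2. S100a9 (chromosome 3, 90692632 to 90695721, minus strand), whose annotated gene lies 22596 bp from S100a8, had 142348 in neutrophils, 16.1 and 53.6 in Ly6Clow cells at day 4 and day 2, and 35.2 and 77.3 in Ly6Chigh cells at day 4 and day 2. Every macrophage group was thus at or under 0.134% of the neutrophil level for S100a8 and 0.0543% for S100a9. The log2 ratios of neutrophils over macrophages were 9.44 to 11.67 for S100a8 and 10.67 to 12.41 for S100a9. Per kilobase of annotated exon S100a9 ranked 1 and S100a8 ranked 3 among 31279 genes in neutrophils, while in the macrophage groups S100a9 ranked between 4405 and 9711 and S100a8 between 3528 and 9756. Together this pair of genes held 0.937% of the summed normalised counts in neutrophils and 0.00150% or less in each macrophage group.

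The balance of the calprotectin partners, S100a9 over S100a8 in normalised counts per kilobase, was 1.87 in neutrophils, 1.02 in Ly6Clow cells at day 4, 0.53 in Ly6Clow cells at day 2, 1.91 in Ly6Chigh cells at day 4 and 1.15 in Ly6Chigh cells at day 2. With the longest annotated transcript as the length the same quantity was 1.35, 0.73, 0.38, 1.38 and 0.83 in that order of groups, so which of the pair is higher depends on the length in Ly6Clow cells at day 4 and Ly6Chigh cells at day 2.

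Among the protease and antiprotease genes, Mmp9 and Slpi were the next highest in neutrophils per kilobase, and Mmp8 in day 2 Ly6Clow cells was within 2-fold of its neutrophil level. Mmp9 (chromosome 2, 164940780 to 164955850, plus strand) encodes gelatinase B, the marker enzyme of tertiary granules. Its normalised count was 76924 in neutrophils, 83.9 and 291.3 in Ly6Clow cells at day 4 and day 2, and 59.4 and 161.7 in Ly6Chigh cells at day 4 and day 2. The macrophage levels came to 0.0772% to 0.379% of the neutrophil level, with log2 ratios of 8.00 to 10.11. Slpi (chromosome 2, 164354070 to 164389095, minus strand) encodes the secretory leukocyte protease inhibitor, which blocks neutrophil elastase. Slpi had 14706 in neutrophils, 32.8 and 202.6 in Ly6Clow cells at day 4 and day 2, and 194.3 and 740.6 in Ly6Chigh cells at day 4 and day 2. Its log2 ratios of neutrophils over macrophages ran from 4.29 against Ly6Chigh cells at day 2 to 8.43 against Ly6Clow cells at day 4.

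Mmp8 (chromosome 9, 7558456 to 7568485, plus strand) encodes neutrophil collagenase, a secondary granule enzyme. It had a normalised count of 1553 in neutrophils, 197.3 and 1059 in Ly6Clow cells at day 4 and day 2, and 143.3 and 642.4 in Ly6Chigh cells at day 4 and day 2. On the deposited scale day 2 Ly6Clow cells thus stood at 68.2% of the neutrophil level and day 2 Ly6Chigh cells at 41.4%, against 12.7% and 9.23% in the Ly6Clow and Ly6Chigh cells of day 4. Of the 8 genes of the set that reached 50 in neutrophils, Mmp8 was the only gene not called higher than in every macrophage group: its log2 ratio over day 2 Ly6Clow cells was 0.55 as deposited and -0.49 once the groups were scaled to equal summed normalised counts, so which of these groups is higher depends on the scale. In neutrophils Mmp8 was at 0.0295 of Mmp9 per kilobase, while in the 4 macrophage groups Mmp8 was the higher gene per kilobase, by 3.43 to 5.80 times. Retnlg (chromosome 16, 48872621 to 48874496, plus strand), which encodes the resistin-like protein gamma of mouse myeloid cells, had 2275 in neutrophils, 30.4 and 94.2 in Ly6Clow cells at day 4 and day 2, and 82.6 and 22.5 in Ly6Chigh cells at day 4 and day 2. Those macrophage levels were 0.987% to 4.14% of that in neutrophils.

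The secondary granule genes separated into abundant and near-silent transcripts in muscle neutrophils. Lcn2 (chromosome 2, 32384633 to 32388252, minus strand) encodes lipocalin 2, which starves bacteria of iron by binding siderophores. It had a normalised count of 7329 in neutrophils, was listed at 0 in Ly6Clow cells at day 4, and had 2.64 in Ly6Clow cells at day 2, 3.59 in Ly6Chigh cells at day 4 and 39.5 in Ly6Chigh cells at day 2. Ltf (chromosome 9, 111019271 to 111042767, plus strand) encodes lactoferrin, the iron-binding protein that defines secondary granules. Ltf had 1915 in neutrophils and 1.19 to 2.51 in the macrophage groups, at log2 ratios of 7.27 to 7.43. Both transcripts were high in neutrophils and at or near 0 in macrophages, apart from the low Lcn2 level in day 2 Ly6Chigh cells.

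Camp and Ngp did not follow Ltf and Lcn2. Camp (chromosome 9, 109847379 to 109849617, minus strand) encodes the cathelicidin CRAMP, and Ngp (chromosome 9, 110419747 to 110423012, plus strand) encodes neutrophilic granule protein, a cystatin-like secondary granule protein. Camp, Ngp and Ltf lie in this order on chromosome 9, with 570129 bp between Camp and Ngp and 596258 bp between Ngp and Ltf. In neutrophils Camp had a normalised count of 13.7 and Ngp one of 45.9, and both were listed at 0 in all 4 macrophage groups. Per kilobase Ngp was at 0.000138 of S100a9 in neutrophils and Ltf at 0.00204 of S100a9. Neither gene reached the level of 50, so neither is among those called.

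**Figure D1:**
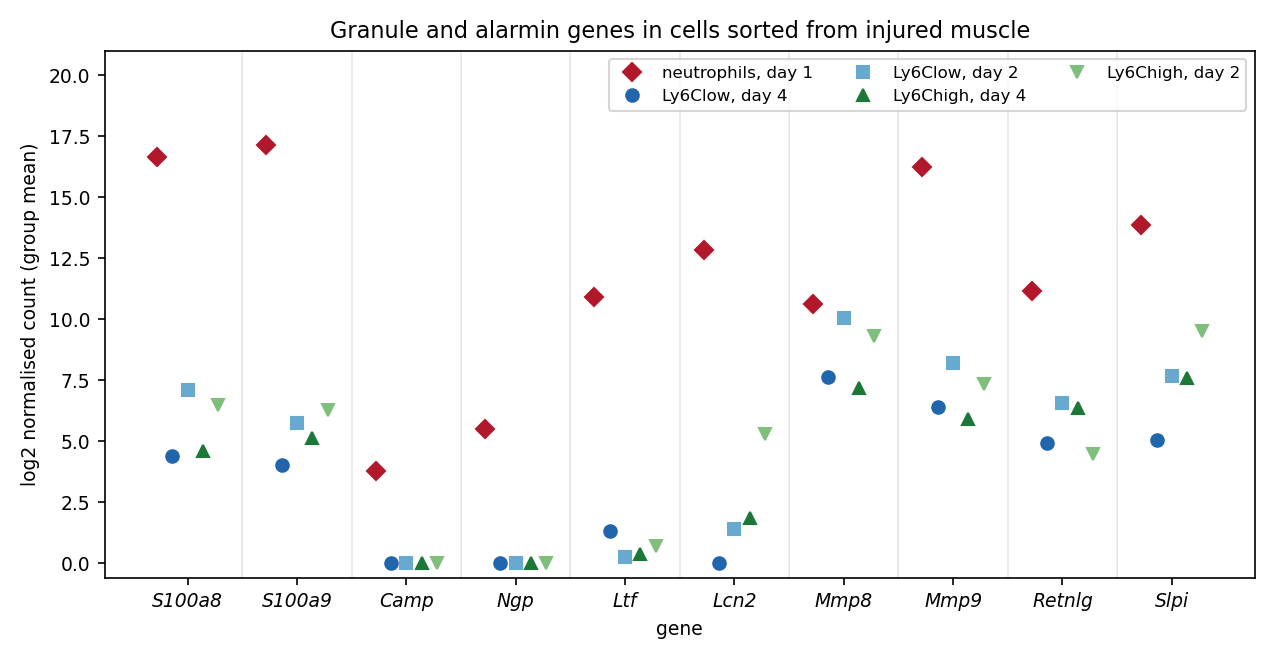
Level of each of the 10 genes in the 5 groups sorted from cardiotoxin-injured muscle, as log2 normalised count (authors' group mean, no error available). On this deposited scale neutrophils (diamonds) lie above every macrophage group for all 10 genes, by the least for Mmp8, which with equal summed counts is lower in neutrophils than in Ly6Clow cells at day 2 (log2 ratio -0.49), and the macrophage groups sit at 0 for Camp and Ngp.

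Counted over the set, 8 of the 10 genes were called higher in neutrophils than in Ly6Clow cells at day 4, where 30.3% of the 12368 genes at the level limit were called higher. The count was 7 against Ly6Clow cells at day 2 (background 31.9%), 8 against Ly6Chigh cells at day 4 (29.3%) and 8 against Ly6Chigh cells at day 2 (30.9%), and no gene of the set (0) was called lower in these 4 comparisons, where 30.6%, 30.5%, 29.9% and 27.6% of all genes were. In either direction 60.9% of genes were called against Ly6Clow cells at day 4 and 62.4% at day 2, and 59.2% against Ly6Chigh cells at day 4 and 58.4% at day 2. All 4 share the same neutrophil column. Higher than in every macrophage group were 7 of the 10, beside 2912 of 12839 genes at the limit in any of these comparisons, or 22.7%. The median log2 ratio of the 8 genes at the limit was 7.71 against Ly6Clow cells at day 2, 8.24 against Ly6Chigh cells at day 4 and 7.29 against Ly6Chigh cells at day 2, where the median over all genes at the limit was 0.05, 0.06 and 0.15. A set of genes named for neutrophils passes the limit mostly through the neutrophil column, so these medians describe the set and test nothing.

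The scale of the neutrophil column shifted all genes. Of the genes called against Ly6Clow cells at day 4, 49.8% were higher in neutrophils as deposited and 22.2% were once the 5 groups were scaled to equal summed normalised counts, which moved the median log2 ratio of all genes by -1.09. The same change of scale moved it by -1.11 against Ly6Clow cells at day 2, where the share called higher became 24.3% in place of 51.2%. Against Ly6Chigh cells the shift was -1.20 at day 4 (17.8% in place of 49.5%) and -1.12 at day 2 (21.8% in place of 52.8%). Scaled so, Ly6Clow over Ly6Chigh cells at day 4 moved by -0.10 and the other comparisons between macrophage groups by less. The genes of the set moved by a similar amount: against Ly6Clow cells at day 4 the log2 ratio of S100a8 was 10.72 with equal summed counts, against 11.67 as deposited, and that of Mmp9 was 8.68, against 9.68. On that scale 7 of the 10 genes were again higher than in every macrophage group, beside 8.8% of all genes at the limit, and Mmp8 was no longer called against Ly6Chigh cells at day 2, with a log2 ratio of 0.22. Against Ly6Clow cells at day 2 the direction of Mmp8 turned with the scale, to a log2 ratio of -0.49 with equal summed counts against 0.55 as deposited.

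Between the macrophage groups, 6 and 5 of the 10 genes were called between days and 2 and 2 between subsets. The comparisons share groups with each other. In Ly6Clow cells 6 of the 10 genes were called lower at day 4 than at day 2, beside 3.24% of 11560 genes called lower, 8.08% called higher and 11.3% called in either direction. These were Mmp8 (log2 ratio -2.37), Slpi (-2.31), S100a8 (-2.23), Mmp9 (-1.68), Retnlg (-1.37) and S100a9 (-1.28), which are all the genes of the set that reached the level limit there. The median of their log2 ratios was -1.95, and that over all genes at the limit was -0.01. Of these 6, S100a8, S100a9, Retnlg and Slpi reached the limit only through day 2, where they were higher, so the median and the count are partly set by the limit and test nothing. With 50 added in place of 10 the calls of S100a9 (-0.65) and Retnlg (-0.84) were lost and 4 remained. In Ly6Chigh cells 4 genes were called lower at day 4 than at day 2 (background 3.74%): Mmp8 (-2.09), Slpi (-1.88), S100a8 (-1.52) and Mmp9 (-1.31). S100a9 had a ratio of -0.95 there and was not called. Retnlg was called higher at day 4 (1.51, background 9.67%). So 5 of the 10 genes, 6 of the 10 being at the limit, were called in either direction, beside 13.4% of all genes at the limit. Retnlg reached the limit only through day 4, and S100a8 and S100a9 only through day 2. These counts too are partly set by the limit and test nothing.

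Ly6Clow and Ly6Chigh cells of the same day differed in Slpi and Retnlg. Slpi was lower in Ly6Clow cells on both days, with a log2 ratio of -1.82 at day 2 and -2.25 at day 4. Retnlg was higher in Ly6Clow cells at day 2 (1.68) and lower in them at day 4 (-1.20). No other gene of the set was called between subsets. At day 2 that made 2 of 10, 6 of the 10 being at the limit (background 11.4%, of which 5.9% higher and 5.46% lower). At day 4 it made 2 of 10, 4 of the 10 being at the limit (background 7.21%, of which 2.98% higher and 4.22% lower). Retnlg on both days and Slpi at day 4 reached the limit only through the subset where they were higher, so the counts are partly set by it. S100a8 had 0.56 and S100a9 -0.46 at day 2, and Mmp8 and Mmp9 had 0.71 and 0.81 at day 2 and 0.44 each at day 4. These calls rest on low levels: with the limit raised to 100 the Retnlg calls were lost in all 4 comparisons between macrophage groups, and S100a8 at day 4 over day 2 in Ly6Chigh cells and S100a9 at day 4 over day 2 in Ly6Clow cells were lost too.

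**Figure D2:**
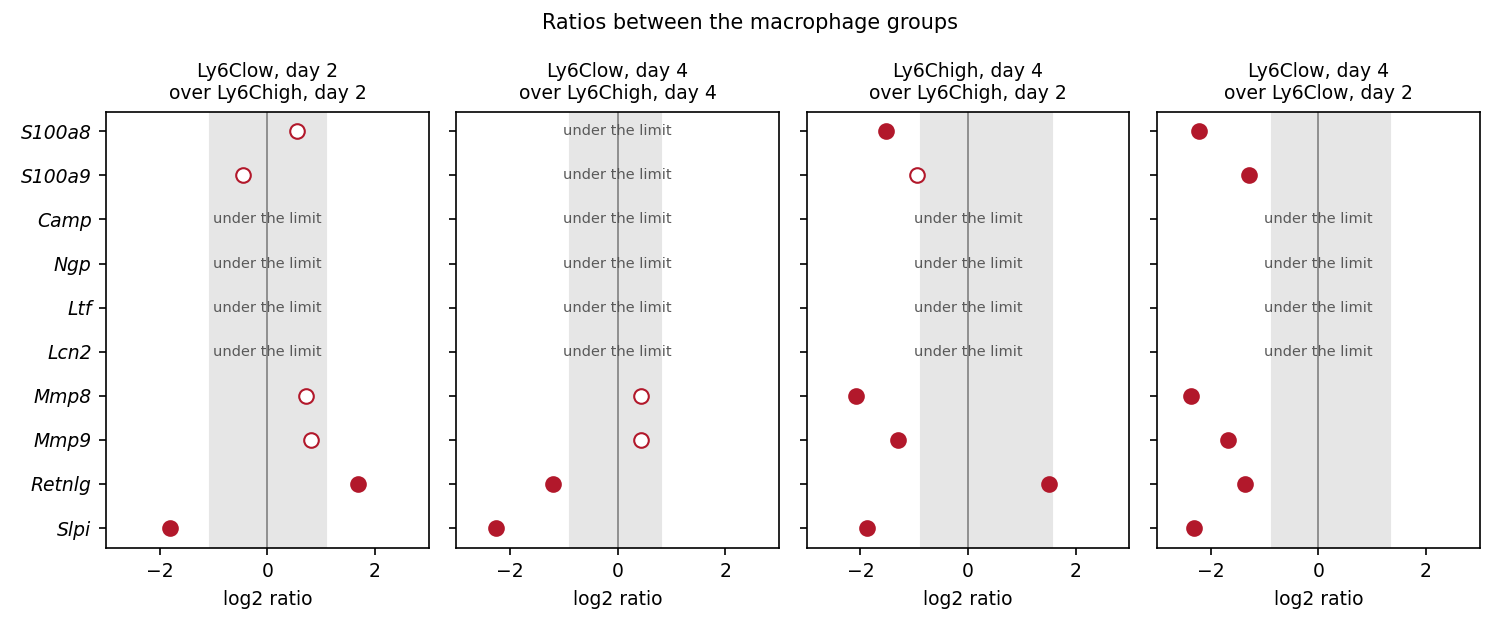
Log2 ratios of the 10 genes in the 4 comparisons between macrophage groups (filled circles, called; open circles, not called; grey band, 5th to 95th percentile of all genes at the level limit). Slpi is left of the band in all 4 panels, and the 6 genes at the level limit lie left of it for Ly6Clow cells at day 4 over day 2.

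Transcripts of other cell types differed between the same groups. The summed normalised count of 18 neutrophil markers outside the set was 459001 in neutrophils, 3964 and 5449 in Ly6Clow cells at day 4 and day 2, and 6218 and 10604 in Ly6Chigh cells at day 4 and day 2. Of these markers, 6, 6, 4 and 2 were at 0 in the macrophage groups in that order, Ly6g in each. Their sum in the macrophages was 0.864% to 2.31% of that in neutrophils, which is above the share of S100a8 and S100a9 and below that of Mmp8 in every macrophage group. Much of it came from few markers. Csf3r had 2367 in Ly6Clow cells at day 4 and Clec4d had 4174 in Ly6Chigh cells at day 2, while Cxcr2 had 4.24 to 9.72. The sum is therefore not a measure of the share of neutrophils in a group. The 6 fibroblast markers summed to 1694 and 79.7 in Ly6Clow cells at day 4 and day 2 and to 23583 and 241.3 in Ly6Chigh cells at day 4 and day 2. Other lymphoid and dendritic markers were also highest in Ly6Chigh cells at day 4, the group in which Retnlg was called higher than at day 2. The 6 dendritic cell markers summed to 141.6 and 38.6 in Ly6Clow cells at day 4 and day 2 and to 1762 and 163.7 in Ly6Chigh cells at day 4 and day 2. The 7 T and NK cell markers summed to 34.8 and 9.25 in Ly6Clow cells and to 802.5 and 31.8 in Ly6Chigh cells on the same days. For the 5 B cell markers the sums were 169.2 and 80.4 in Ly6Clow cells and 209.7 and 43.9 in Ly6Chigh cells. The part of other cells in the levels of the 10 genes was not tested.

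In BMDM the order of the genes was different, and Ngp, Ltf and Camp, at or close to 0 in muscle macrophages, were detected in every library. The 2 tables were normalised separately, so their levels are set side by side by rank per kilobase only. In the 6 libraries S100a9 ranked between 37 and 239, Ngp between 143 and 699, and S100a8 between 183 and 780. Ltf ranked between 907 and 3460 and Camp between 1214 and 4811, where Camp had ranked 10308 and Ngp 8562 in muscle neutrophils. Mmp9 ranked between 7882 and 11275 and Slpi between 11589 and 14072 in BMDM, after 52 and 102 in muscle neutrophils. The secondary granule gene Lcn2 also ranked lower in BMDM, between 1851 and 5573, after 464 in muscle neutrophils. Per kilobase Ngp stood at 0.366 to 0.422 of S100a9 in the BMDM libraries. The primary granule gene Elane had a normalised count of 6.78, 7.73 and 17.0 with RvD2 and 3.59, 9.03 and 14.1 untreated.

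**Figure D3:**
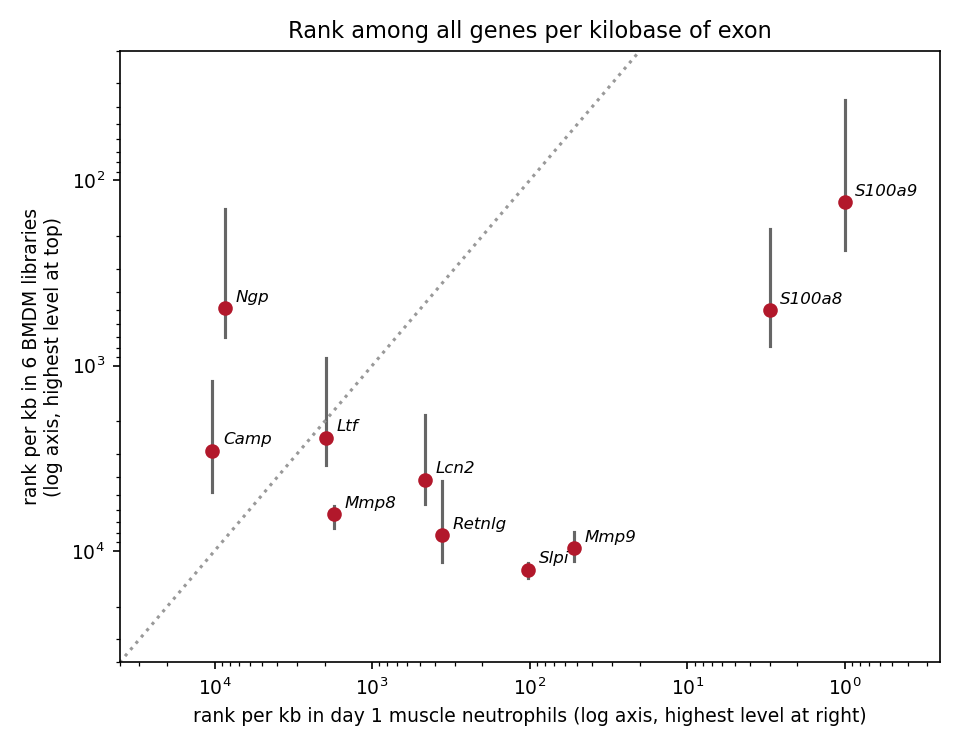
Rank per kilobase among all ranked genes for each of the 10 genes, in muscle neutrophils (x axis, log scale) and in BMDM (y axis, log scale; points, median of 6 libraries; bars, lowest to highest rank). Ngp and Camp lie above the dotted line of equal ranks. S100a8, S100a9, Lcn2, Mmp8, Mmp9, Retnlg and Slpi lie below it, and the bar of Ltf crosses it.

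RvD2 and untreated BMDM were not distinguishable in any of the 10 genes. S100a8 had log2 normalised counts of 9.36, 9.81 and 10.42 with RvD2 and 9.35, 9.99 and 11.02 untreated. S100a9 had 10.39, 10.82 and 11.46 with RvD2 and 10.31, 10.99 and 12.21 untreated. Both genes ran from low to high within either group, and the groups overlapped. The mean log2 level of S100a8 was 9.87 ± 0.53 with RvD2 and 10.12 ± 0.84 untreated (SD, n = 3 each), and the log2 fold change was -0.25 (SE 0.40, 95% interval -1.15 to 0.65, limma adjusted p = 0.833). For S100a9 the fold change was -0.28 (SE 0.44, limma adjusted p = 0.831).

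Among the granule genes Ngp had log2 normalised counts of 10.29, 10.60 and 11.24 with RvD2 and 10.29, 10.91 and 12.08 untreated. Ltf had 9.63, 9.99 and 10.77 with RvD2 and 9.74, 10.39 and 11.50 untreated. Camp had 7.55, 7.53 and 8.54 with RvD2 and 6.90, 7.98 and 8.96 untreated. The spread within each group exceeded the difference between groups for all of them, with fold changes of -0.38 (Ngp), -0.42 (Ltf) and -0.07 (Camp) on the log2 scale. Lcn2 had 8.38, 8.82 and 9.52 with RvD2 and 8.43, 9.11 and 10.19 untreated. Mmp8 was the steadiest gene, with 7.57, 8.05 and 8.00 with RvD2 and 7.91, 8.04 and 8.22 untreated. Its fold change of -0.18 had a 95% interval of -0.50 to 0.13. Mmp9 had 7.19, 6.97 and 7.88 with RvD2 and 6.57, 7.40 and 8.00 untreated, with a fold change of 0.02. Retnlg and Slpi were low: Retnlg had 3.90, 5.30 and 5.38 with RvD2 and 4.09, 5.28 and 6.78 untreated. Slpi had 3.76, 3.15 and 4.55 with RvD2 and 3.87, 4.52 and 4.82 untreated, the largest fold change of the set at -0.58 (SE 0.39, limma adjusted p = 0.543).

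By limma's adjusted p, 0 of the 10 genes were called, where 283 of 15239 genes were (1.86%; 0.794% higher and 1.06% lower), and 0 of the 10 had an unadjusted p under 0.05. The groups overlapped for all 10, where the 3 values of either group did not overlap in 21% of all genes tested. The fold change was negative for 9 of the 10 genes and for 50.8% of all genes tested. A miss of the threshold does not show that RvD2 left these genes alone, since the intervals of S100a8, S100a9, Ngp, Ltf, Lcn2, Camp, Retnlg and Slpi reach past a 2-fold decrease. Nothing in the labels says that the libraries came from separate mice or cultures, so these p-values measure the spread between libraries, which may be technical.

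**Figure D4:**
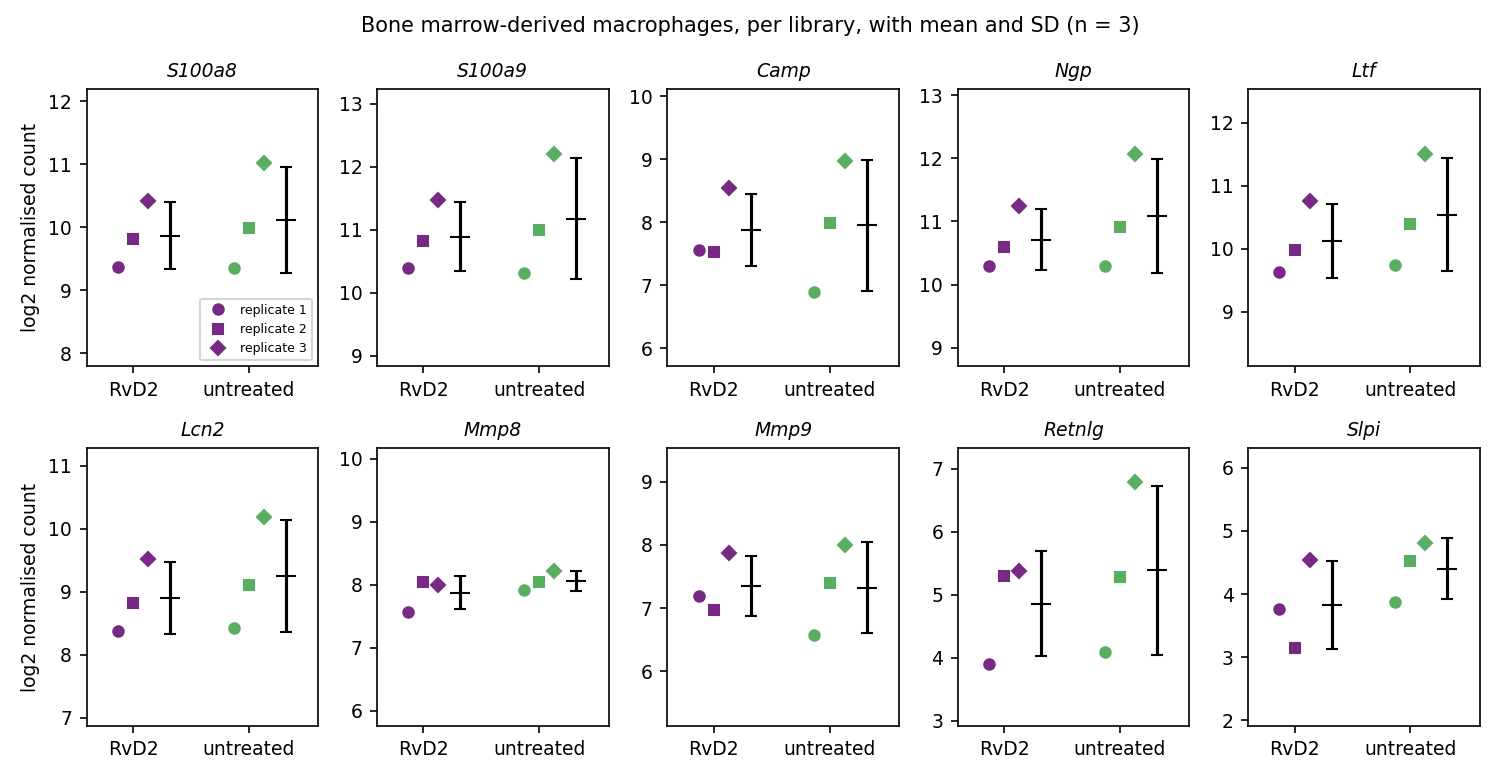
Log2 normalised counts of the 10 genes in each BMDM library (RvD2, purple, left; untreated, green, right; marker shape, replicate number), with mean and SD of 3 libraries in black. Each panel spans the same 4.4 log2 units. The groups overlap in every panel, and untreated replicate 3 is the highest library in every panel.

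The larger differences were between libraries of the same treatment, and they were shared by the genes. Untreated replicate 3 had the highest value of all 6 libraries for 10 of the 10 genes, where it was the highest for 16.8% of all genes tested. S100a9 was 3.72-fold, Ngp 3.44-fold and Ltf 3.40-fold higher in untreated replicate 3 than in untreated replicate 1, against 1.24-fold for Mmp8. With RvD2, S100a9 was 2.10-fold, Ngp 1.93-fold and Lcn2 2.19-fold higher in replicate 3 than in replicate 1. The within-group SD of the log2 values had a median of 0.74 over the 10 genes and of 0.12 over all genes tested, and 9 of the 10 lay above the 95th percentile of all genes, Mmp8 alone being lower, at percentile 77.5. Without untreated replicate 3 the median SD was 0.53 over the set and 0.12 over all genes.

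Several of the genes kept a near-constant ratio through these swings. The summed normalised count of the 10 genes was 4931, 6347 and 10015 with RvD2 and 4863, 7616 and 16379 untreated. In the same 6 libraries Ngp stayed between 0.366 and 0.422, Ltf between 0.0851 and 0.102 and Lcn2 between 0.0492 and 0.0541 of S100a9 per kilobase, and S100a9 between 2.60 and 3.03 times S100a8. Mmp8 over Mmp9 was less constant, at 1.59 to 3.68. Macrophage markers varied less: the median within-group SD of 10 macrophage markers was 0.14 on the log2 scale.

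Other neutrophil transcripts followed the set in part. Of 18 neutrophil markers outside the set 9 were tested, and 5 of those 9 were highest in untreated replicate 3, beside 16.8% of all genes tested. Cxcr2 had a normalised count of 19.1, 20.8 and 22.5 with RvD2 and 11.1, 28.4 and 44.1 untreated, and Ly6g had 2.98, 2.57 and 2.30 with RvD2 and 1.07, 1.23 and 10.5 untreated, where 3 reads are worth 2.66 to 4.23 normalised counts, so Ly6g was above that level in untreated replicate 3 alone. The summed count of the 18 markers was 6253, 8744 and 9475 with RvD2 and 6177, 8046 and 8974 untreated, so the sum was highest in RvD2 replicate 3 and not in untreated replicate 3, and between 1 and 6 of the markers were at 0 in a library. Clec4d, a C-type lectin, held most of this sum, with 8539 in RvD2 replicate 3 and 7991 in untreated replicate 3. The order of the sums therefore mostly follows Clec4d and does not show how the other markers ran. Untreated replicate 3 also had the lowest depth of the 6 libraries. The part of other cells, of depth or of replicate preparation in the values of the 10 genes was not tested. Without untreated replicate 3 the fold change of 7 of the 10 genes turned positive, among them S100a8 (0.20, limma adjusted p = 0.831), S100a9 (0.24) and Camp (0.44), and 0 of the 10 were called.

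**Figure D5:**
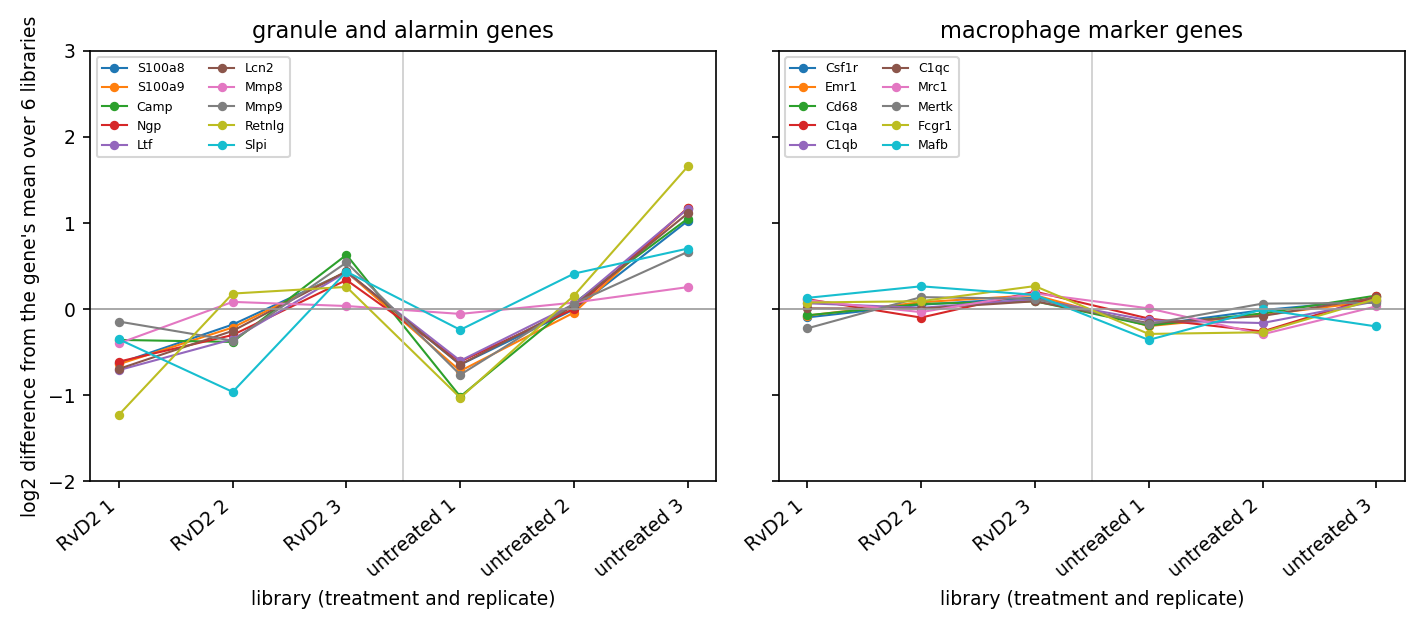
Log2 difference of each gene from its own mean over the 6 BMDM libraries, for the 10 granule and alarmin genes (left) and 10 macrophage markers (right), RvD2 libraries before untreated ones in each panel. Lines join the values of a gene and imply no order of the libraries. The granule and alarmin genes lie highest in untreated replicate 3, and the macrophage markers stay close to 0 throughout.

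The promoters of S100a8, S100a9, Ngp and Ltf, which kept their ratios across libraries, and that of Mmp8, which varied least, are shown for comparison. Lcn2 kept its ratio as well, and its promoter is not shown. They are taken from RefSeq on GRCm38.p6 as 300-base windows, from 250 bases before to 50 bases after the annotated start, 5′ to 3′ on the strand of the gene, and 9 of the 10 genes had an entry (Mmp9 had none). Capitals mark matches, on either strand, of TTNNGNAA (or TTNCNNAA, a core of C/EBP sites), GAGGAA (or TTCCTC, a core of PU.1 sites) and TATAAA (or TTTATA, the TATA box). C/EBP epsilon and PU.1 are known regulators of granulocyte genes. S100a8 is at chr3:90668821-90669120 on the plus strand, S100a9 at chr3:90695672-90695971 on the minus strand, Ngp at chr9:110419558-110419857 on the plus strand, Ltf at chr9:111019042-111019341 on the plus strand and Mmp8 at chr9:7558179-7558478 on the plus strand.
S100a8: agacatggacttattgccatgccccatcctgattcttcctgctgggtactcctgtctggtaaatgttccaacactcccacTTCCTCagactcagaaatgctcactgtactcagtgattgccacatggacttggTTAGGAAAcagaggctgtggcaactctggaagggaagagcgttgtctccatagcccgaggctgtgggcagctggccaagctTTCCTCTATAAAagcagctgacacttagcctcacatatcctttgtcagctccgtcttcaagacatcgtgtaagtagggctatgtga
S100a9: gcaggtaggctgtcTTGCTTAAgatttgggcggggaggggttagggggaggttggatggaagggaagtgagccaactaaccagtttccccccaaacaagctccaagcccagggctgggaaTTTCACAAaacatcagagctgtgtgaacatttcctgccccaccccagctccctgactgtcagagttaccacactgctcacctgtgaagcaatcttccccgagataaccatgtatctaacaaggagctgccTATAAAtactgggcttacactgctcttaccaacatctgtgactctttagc
Ngp: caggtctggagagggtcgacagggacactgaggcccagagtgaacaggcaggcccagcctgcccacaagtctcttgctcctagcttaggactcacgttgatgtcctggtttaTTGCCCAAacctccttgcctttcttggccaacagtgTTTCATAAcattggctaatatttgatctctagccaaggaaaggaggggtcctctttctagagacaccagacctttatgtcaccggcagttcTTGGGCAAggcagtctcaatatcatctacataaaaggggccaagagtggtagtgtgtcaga
Ltf: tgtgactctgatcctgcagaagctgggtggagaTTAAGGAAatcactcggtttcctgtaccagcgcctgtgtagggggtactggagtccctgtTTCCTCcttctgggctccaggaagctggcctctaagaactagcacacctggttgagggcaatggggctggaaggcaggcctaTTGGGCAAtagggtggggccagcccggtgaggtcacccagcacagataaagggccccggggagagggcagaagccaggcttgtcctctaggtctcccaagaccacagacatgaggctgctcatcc
Mmp8: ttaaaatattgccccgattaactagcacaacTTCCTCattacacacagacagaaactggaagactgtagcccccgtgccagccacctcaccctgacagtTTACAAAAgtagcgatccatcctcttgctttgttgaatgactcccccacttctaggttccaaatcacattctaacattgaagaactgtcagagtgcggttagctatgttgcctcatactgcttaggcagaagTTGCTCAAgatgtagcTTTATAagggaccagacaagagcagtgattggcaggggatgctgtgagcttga

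TTNNGNAA was found in 8 of the 9 promoters and in 40.7% of all 32851 promoters of this length. GAGGAA was in 4 of the 9, against 28.3% of all promoters, and TATAAA in 3 of the 9, against 13.6%. The promoter without any match was that of Camp. Ngp and Slpi had 3 matches of TTNNGNAA each, S100a9, Ltf and Mmp8 had 2 each, and S100a8 had 1, which begins 117 bases before the start. In S100a8 a TTCCTC ends where TATAAA begins, 30 bases before the start, and no pair of matches (0) shared a base. The TATAAA of S100a9 begins at the start itself. That of Mmp8 is a TTTATA, on the other strand, which begins 3 bases before the start. Mmp8 holds all 3 motifs, as does S100a8, so these letters do not separate the genes that varied together from Mmp8. A match is a run of letters and not a measured binding site.

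Other granule genes were compared in the same muscle groups. Of 29 further secondary granule, tertiary granule and secretory vesicle genes with a row, 28 reached the limit, 16 were called higher in neutrophils than in every macrophage group (background 22.7%) and 3 were called lower (background 18.8%). Scaled to equal summed normalised counts, 11 were higher (background 8.8%) and 4 lower (background 35.4%), the calls of Itgam, Itgb2, B4galt1, Padi4 and Hk3 being lost. Chi3l1, a chitinase-like protein, had 9780 in neutrophils against 1.49 to 7.42 in the macrophage groups, and Pglyrp1, a peptidoglycan recognition protein of granules, had 2315 against 4.44 to 60.5. Hp, which encodes haptoglobin, had a log2 ratio of 8.58 over Ly6Clow cells at day 4. Lower in neutrophils were Cybb, a subunit of the phagocyte oxidase, and the lysozyme genes Lyz1 and Lyz2, a close pair whose reads may be shared. Of 10 primary granule genes 4 reached the limit, 0 were called higher than in every macrophage group and 1 was called lower, Ctsc (cathepsin C), at 2671 in neutrophils against 7509 to 17372. Prtn3 (proteinase 3) had 58.7 in neutrophils and 6.05 to 36.6 in the macrophage groups. In BMDM 0 of 26 tested further granule genes and 0 of 5 tested primary granule genes were called with RvD2 by limma's adjusted p. Of the 26, 14 were highest in untreated replicate 3, beside 16.8% of all genes tested.

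Receptors on which the secreted proteins of the set act were compared in the same way. Of 14 receptor genes 12 reached the limit, 6 were called higher in neutrophils than in every macrophage group and 2 lower (3 and 4 with equal summed counts). Over all genes at the limit the shares were 22.7% higher and 18.8% lower (8.8% and 35.4% with equal summed counts), so the counts of lower receptor genes are near the background. Cd14, a co-receptor of Toll-like receptor 4, had 218315 in neutrophils against 15435 to 29727 in the macrophage groups, and Tlr4 had 6608 against 654.6 to 707.9. Fpr2, a formyl peptide receptor that also binds cathelicidin, had 5155 against 25.5 to 206.3. Cd36, a scavenger receptor, was lower in neutrophils, at 203.3 against 2237 to 18830. In BMDM Cd14 was called higher with RvD2, at 3753, 4085 and 5445 with RvD2 against 1555, 2118 and 2537 untreated, without overlap (log2 fold change 1.11, SE 0.18, limma adjusted p = 0.0237), while Tlr4 had a fold change of 0.01. That is 1 of 13 receptor genes tested.

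The wider S100 family differed in its direction in neutrophils, and part of it was lower at day 4 than at day 2 in macrophages. Of 15 other S100 genes 7 reached the limit: S100a11 was called higher in neutrophils than in every macrophage group as deposited but not with equal summed counts, at 8800 against 494.6 to 2504, and S100a4 and S100a10 were called lower, S100a4 at 436.1 against 1514 to 15828. Between days, 4 of 7 at the limit were called lower at day 4 in Ly6Chigh cells (background 3.74%) and 4 of 6 in Ly6Clow cells (background 3.24%), which were S100a4, S100a6, S100a10 and S100a11 in both subsets. Their log2 ratios ran from -2.20 to -1.52 in Ly6Chigh cells and from -2.13 to -1.27 in Ly6Clow cells, and S100a16 was called higher at day 4 in Ly6Chigh cells (2.40). Of 8 other alarmin genes, 7 at the limit, Il1a and Hmgb2 were higher in neutrophils (Il1a 14408 against 87.5 to 215.3), Hmgb2 no longer so with equal summed counts, and the heat shock genes Hspa1a and Hspa1b were lower. In BMDM Hspa1a (log2 fold change 0.91, SE 0.15, limma adjusted p = 0.0212) and Hspa1b (0.75, SE 0.14, limma adjusted p = 0.0358) were called higher with RvD2, and 0 of 7 S100 genes tested were called.

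Among 14 regulators of granulocyte genes, 13 at the limit, 8 were called higher in neutrophils than in every macrophage group (background 22.7%) and 2 lower (18.8%), against 6 (8.8%) and 2 (35.4%) with equal summed counts. Cebpe, which encodes C/EBP epsilon, had 379.4 in neutrophils against 8.88 to 35.6, and the repressor gene Gfi1 had 443.4 against 0 to 5.90. Irf8, which directs progenitors to monocytes, was lower in neutrophils, at 53.8 against 2120 to 5237, and so was Cebpa. In BMDM 1 of 12 tested was called, Nfil3, higher with RvD2 (log2 fold change 0.75, SE 0.10, limma adjusted p = 0.0102).

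The genes most like the set over the 5 muscle groups were found by the root mean square distance between centred profiles of log2(normalised count + 10) across 12829 genes. Nearest to the median profile of the 10 genes were a row named 7SK (distance 0.32), 1 of 334 rows of that symbol whose reads cannot be told apart with certainty, then Fam123a (0.37), Spatc1 (0.39), Gm5483 (0.41) and 1100001G20Rik (0.42). Gm5483 belongs to the stefin A family, whose near-identical copies may share reads. Nearest to S100a8 alone were Il1f9 (0.77), which encodes interleukin-36 gamma, Asprv1 (0.84), Chi3l1 (0.85), Cxcr2 (0.88) and Irg1 (1.09), the gene of the enzyme that makes itaconate. Irg1 had 130484 in neutrophils against 94.6 to 254.2 in the macrophage groups. These distances are between 5 group means and describe the profiles only.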

How the data were processed

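RNA was poly-A selected, prepared with TruSeq reagents and sequenced from 25 samples in 9 groups; 6 samples were not analysed here. The mm10 build, DESeq and TopHat2 2.0.7 are named per the submitters' processing notes; for the annotation and counting rules, these are not given in the sources used here. Values as deposited are log2 normalised counts, with values under 1 count at 0. The authors deposited 1 column per BMDM library and 1 group mean of log2 values per muscle group, and the 2 tables were normalised separately. For muscle, 2 cells held dates and were treated as missing.

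From these, muscle ratios were computed with 10 added to each normalised count and called at 2-fold with the higher group at 50 or more. BMDM values were tested with limma 3.58.1 (R 4.3.3), with a mean-variance trend, on genes with a mean normalised count of 10 or more, two-sided, adjusted by Benjamini-Hochberg over all genes at 0.05. The count test planned for whole counts was not used, because the values are log2 means and normalised log2 values. Gene reads per BMDM library were estimated from the step of low values, of which 31.6% to 44.2% were whole within 0.02, so depths are approximate. Levels per kilobase used union exon lengths of GENCODE M21, which matched 36308 of the 38087 identifiers (95.3%). Ranks per kilobase were taken only among the 31279 matched genes with a union exon length of at least 200 bp. Tables were handled with Python 3.11.15, pandas 2.3.3 and numpy 2.4.6. The test was checked on simulated data, with noise drawn separately for each gene and library. Swings shared between genes, as in these libraries, were not simulated.

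The 10 genes and the lists of related genes and markers were chosen with earlier results of these data known. From each list, per comparison, up to 4 called genes with the largest ratio (smallest adjusted p in BMDM) could be named. Genes making up a count of 5 or fewer, and those whose call changed with scaling, were named after their values were seen. The labels do not say that replicate numbers pair the libraries, so the main fit had no block. Alternatives were another amount added, another level limit, equal summed counts, TMM factors, other filters, no trend, a replicate block and each library left out.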

Additional observations from a re-analysis of the deposited data

How the results depend on the processing

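In BMDM, 0 of the genes tested (10 in all, but 8 where the filter on low values was set at 50) were called under each setting except the fit with the replicate number as a block, which called 1 (Ltf, limma adjusted p = 0.0377) and had 5 at an unadjusted p under 0.05; over all genes the block called 1066, against 283 without it. Whether the numbers pair the libraries is not stated in the labels, and the correlations do not decide it. Same-number correlations of deviations were 0.29, 0.024 and 0.0521. RvD2 replicates 1 and 2 correlated best with their own number, but RvD2 replicate 3 correlated best with untreated replicate 2 (0.185). Over all genes the calls numbered 137 with no filter on low values, 49 with no trend and 79 to 288 with 1 library left out, the lowest without RvD2 replicate 3; without RvD2 replicate 2 they were 89, and without untreated replicates 1, 2 and 3 they were 122, 106 and 140. Log2 fold changes that turned sign with a library left out ran from lowest to highest as follows. S100a8 ran from -0.64 to 0.20, S100a9 ran from -0.71 to 0.24, Camp ran from -0.60 to 0.44, Ngp ran from -0.78 to 0.11, Ltf ran from -0.82 to 0.061, Lcn2 ran from -0.74 to 0.14, Mmp9 ran from -0.35 to 0.36 and Retnlg ran from -1.17 to 0.17. The cause was not tested. In muscle, with 50 added, the genes called were 1 for Ly6Clow over Ly6Chigh cells at day 2, 1 at day 4, 2 for day 4 over day 2 in Ly6Chigh cells and 4 in Ly6Clow cells; with the level limit at 100 they were 1, 1, 3 and 4. Equal summed counts ended 1 call of a member, Mmp8 in neutrophils over Ly6Chigh cells at day 2, and turned the uncalled ratio of Mmp8 over Ly6Clow cells at day 2 to -0.49. The longest transcript as length moved 29 of 50 levels per kilobase, which is fixed by the annotated lengths. The change was least for S100a9 (522 against 519 bp) and largest for Lcn2 (2623 against 1374 bp). No paired analysis was possible for muscle because its columns are group means, and for the same reason no replicate could be left out there. Depth limits Retnlg and Slpi most in BMDM, where 3 reads are worth 2.66 to 4.23 normalised counts.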

Other observations

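Relatives of the 10 genes went both ways in muscle. Of 26 relatives with a row 13 reached the level limit, and 5 were called higher in neutrophils than in every macrophage group (background 22.7%) and 3 lower (background 18.8%). The stefin A genes Stfa2l1 and Gm5483, copies whose reads may be shared, had normalised counts of 1670 and 1475 in neutrophils against 1.49 or less in the macrophage groups. Retn, which encodes resistin, had 105.0 in neutrophils against 1.27 or less. The matrix metalloproteinases Mmp12, Mmp13 and Mmp14 were lower in neutrophils, Mmp14 at 237.8 against 1892 to 5751. In BMDM Mmp19 was called higher with RvD2, at 741.1, 747.2 and 805.6 against 498.7, 579.6 and 588.7 untreated (log2 fold change 0.46, SE 0.08, limma adjusted p = 0.0252), 1 of 7 relatives tested.

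Of 16 inhibitors of granule proteases 7 reached the limit. Cstb, which encodes cystatin B, was called higher in neutrophils than in every macrophage group, at 20812 against 3531 to 7780, but not with equal summed counts. In BMDM 0 of 7 inhibitors tested were called by limma's adjusted p. Cd177, a surface protein of neutrophils, was an exception among the neutrophil markers, at 475.2 in neutrophils, 43.5 and 217.1 in Ly6Clow cells at day 4 and day 2, and 541.7 and 2018 in Ly6Chigh cells at day 4 and day 2.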
